A study of Mus musculus with 6 samples.

Results

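Claudins are membrane proteins that seal or open the space between neighbouring epithelial cells at tight junctions, where occludin (Ocln) sits beside them and the scaffold ZO-1 (Tjp1) links them to actin. E-cadherin (Cdh1) holds cells together at the adherens junction below, EpCAM (Epcam) is a surface adhesion protein that binds claudin-7, and Esrp1 is a splicing factor that keeps epithelial isoforms in place. Mouse embryonic stem cells grow as compact epithelium-like colonies held by E-cadherin, and lose this form when they pass through an epithelial to mesenchymal transition.

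The 10 genes described here are the claudins Cldn3, Cldn4, Cldn6, Cldn7 and Cldn9 with Cdh1, Epcam, Ocln, Tjp1 and Esrp1. Each was read from the probeset whose annotation gives that symbol alone, and all 10 had exactly 1 such probeset, out of 19938 genes measured. They were chosen by name, not by their values in these samples, although with earlier results of these data known. The study has 6 samples of E14, a widely used mouse embryonic stem cell line, grown with leukemia inhibitory factor and serum on mitomycin-treated fibroblast feeders. There were 2 untreated samples, 2 with valproic acid (VPA) at 0.5 mM and 2 with sodium butyrate (NaBu) at 0.2 mM, all collected at 16 h. Both compounds are short-chain fatty acids that inhibit histone deacetylases. The labels do not say whether feeder cells were removed before RNA was made, nor whether replicates 1 and 2 are separate cultures, so p-values measure only the spread between these samples.

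All values are log2 expression per probeset after RMA, a method that corrects, normalises and summarises Affymetrix probe signals. The level of one probeset cannot be set against that of another, so genes are compared across arrays only. A place above or below the array median is given as a rough guide to signal and no more. In bulk RNA, fewer cells of a type and less RNA per cell cannot be told apart. The 12 embryonic stem cell markers lay above the array median on every array, with Pou5f1 between 11.12 and 11.90. Of 19 feeder fibroblast markers 13 did so too, and their mean was 6.29 and 6.84 in the untreated samples, 6.25 and 7.04 with VPA and 6.39 and 7.09 with NaBu, the first value of each pair being replicate 1. Arrays of the same replicate number deviated from their group means together. They are called replicate set 1 and replicate set 2, and treatment differences are also given within each set.

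The start regions of 3 claudins are shown because Cldn6 and Cldn4 were the 2 genes of the 10 above control by over 0.2 in both replicate sets with VPA, and Cldn3 is the direct neighbour of Cldn4 on chromosome 5. The lines hold the 250 bases before the annotated start, on the strand of the gene, from RefSeq for build GRCm38.p6. Capitals mark matches on either strand to the E-box CAGGTG, the letters that Snail and Zeb repressors are known to bind, and to the GC box GGGCGG, the letters known for Sp1.
Cldn6, chr17:23679115-23679364, plus strand: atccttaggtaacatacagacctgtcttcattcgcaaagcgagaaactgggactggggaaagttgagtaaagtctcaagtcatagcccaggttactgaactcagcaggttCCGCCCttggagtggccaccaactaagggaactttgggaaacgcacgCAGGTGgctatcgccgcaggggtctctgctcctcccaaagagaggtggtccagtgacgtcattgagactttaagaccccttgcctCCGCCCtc
Cldn4, chr5:134946935-134947184, minus strand: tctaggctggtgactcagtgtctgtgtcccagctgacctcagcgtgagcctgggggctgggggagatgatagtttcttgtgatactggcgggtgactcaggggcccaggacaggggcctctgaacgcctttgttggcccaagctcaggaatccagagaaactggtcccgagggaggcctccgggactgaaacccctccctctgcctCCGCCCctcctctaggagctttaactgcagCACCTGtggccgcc
Cldn3, chr5:134985964-134986213, plus strand: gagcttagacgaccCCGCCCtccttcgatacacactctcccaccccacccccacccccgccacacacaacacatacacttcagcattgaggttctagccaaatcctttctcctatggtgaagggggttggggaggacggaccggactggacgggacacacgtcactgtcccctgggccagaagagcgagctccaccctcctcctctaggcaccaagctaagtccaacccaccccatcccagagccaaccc
Cldn6 held 1 E-box match, 93 bases before the start, and 2 GC box matches. In Cldn4 there was 1 E-box match 14 bases and 1 GC box match 44 bases before the start, and in Cldn3 only 1 GC box match, 236 bases before it. Of 32841 RefSeq start regions of this length, 17.2% held the E-box and 32.7% the GC box. The AP-2 palindrome GCCNNNGGC, present in 13.7% of them, was in none of these 3. No matches overlapped. Regions were on file for 7 of the 10 genes, the others being Cldn9, Cdh1 and Esrp1. Among the regions not shown, that of Epcam and start 2 of Cldn7 and of Ocln each held 2 E-box matches. Tjp1 and start 1 of Cldn7 and of Ocln held 0. Start 2 of Ocln also held 1 match to the AP-2 palindrome. The motifs were picked after the values were seen, and a match describes letters, not a bound site.

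**Figure D1:**
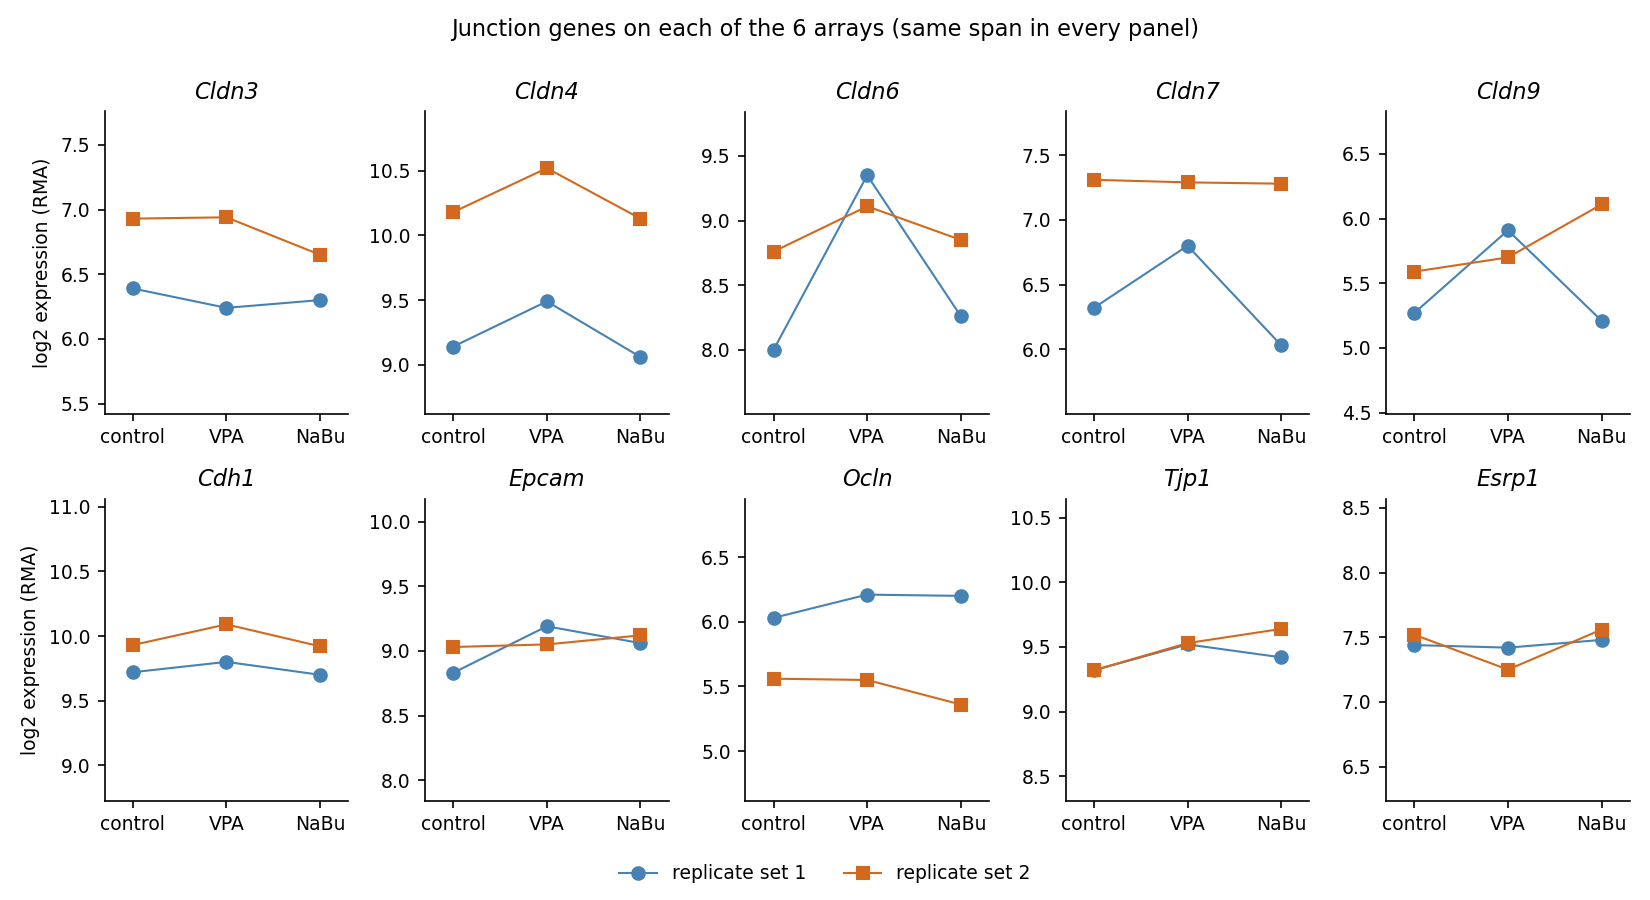
Log2 expression (vertical axes, every panel spanning the same range) of the 10 genes in untreated, VPA and NaBu samples, with circles for replicate set 1 and squares for replicate set 2 and lines joining arrays of 1 set. Cldn4, Cldn7 and Cldn3 were higher and Ocln lower in set 2 in all 3 conditions, and Cldn6 peaked with VPA in both sets.

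VPA was compared with control to ask what a low dose of a deacetylase inhibitor does to stem cell expression under self-renewal conditions. Cldn6, the claudin best known from embryonic epithelium and pluripotent cells, had the largest difference of the 10 genes. It read 8.00 and 8.76 in untreated cells and 9.35 and 9.11 with VPA. Both VPA arrays were above both untreated arrays, and the gap was wide in set 1 and narrow in set 2 (1.35 and 0.35 on the log2 scale). The mean log2 difference was 0.85, or 1.8-fold, with a 95% interval of 0.12 to 1.58 and an adjusted p of 0.964 by limma over all genes. With the replicate number as a block the interval was 0.35 to 1.35 and the adjusted p was 0.202, so Cldn6 did not pass in either model.

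Cldn9 is the neighbour of Cldn6 on chromosome 17 and encodes a claudin known from the inner ear and embryonic tissue. Its values were 5.27 and 5.59 in untreated cells and 5.91 and 5.70 with VPA, without overlap. It was higher by 0.64 in set 1 and by 0.11 in set 2, with a mean of 0.38 and a 95% interval of -0.14 to 0.89 with the block. As for its neighbour, the larger of the 2 differences was in set 1, and the difference in either set rests on 1 array per condition.

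Cldn4, a sealing claudin and a receptor for Clostridium enterotoxin, differed by nearly the same amount in both sets. The untreated arrays read 9.14 and 10.18 and the VPA arrays 9.49 and 10.52. The groups overlapped because set 2 was higher in every condition, but VPA was above control by 0.35 in set 1 and by 0.34 in set 2. The mean log2 difference of 0.35 had a 95% interval of -0.92 to 1.62 without the block and of 0.10 to 0.59 with it (limma adjusted p 0.254 with the block). Cldn3, its neighbour and a close relative in sequence and toxin binding, is given for comparison. It read 6.39 and 6.93 untreated and 6.24 and 6.94 with VPA, differences of -0.15 and 0.01 within the sets. Cldn7, a claudin of the basolateral membrane as well as the tight junction, read 6.32 and 7.31 untreated against 6.80 and 7.29 with VPA. It was higher by 0.48 in set 1 and stood at -0.02 in set 2.

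Tjp1 and Ocln encode structural partners of the claudins. Tjp1 read 9.32 and 9.32 in untreated cells and 9.52 and 9.53 with VPA, with an SD of 0.01 in either group, and the groups did not overlap. Its log2 difference of 0.21 had a 95% interval of -0.06 to 0.47 with the block. Ocln, whose values were 6.03 and 5.56 untreated and 6.21 and 5.55 with VPA, stood at 0.18 in set 1 and -0.02 in set 2, and its untreated and VPA arrays overlapped. Marveld2 (tricellulin), which is related to occludin, lies beside Ocln on the chromosome and was named after its values were seen, stood at 0.28 and 0.01 within the sets.

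Cdh1 stood close to its untreated level with VPA. Its arrays read 9.72 and 9.93 untreated and 9.80 and 10.09 with VPA, and the mean log2 difference was 0.12 with a 95% interval of -0.12 to 0.37 with the block. Cdh3, the P-cadherin gene next to Cdh1, also named after its values were seen, stood at -0.15 and 0.23 within the sets. Epcam read 8.83 and 9.03 untreated and 9.19 and 9.05 with VPA, groups that did not overlap although 9.05 and 9.03 lie close. Its differences were 0.36 in set 1 and 0.03 in set 2. Esrp1 was the one gene lower in both sets, with 7.44 and 7.52 untreated and 7.42 and 7.25 with VPA, a mean log2 difference of -0.14 and a 95% interval of -0.41 to 0.13 with the block.

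Counted together, 8 of the 10 genes had a log2 difference above 0 with VPA, against 53.0% of all genes, and 6 (Cldn4, Cldn6, Cldn9, Cdh1, Epcam and Tjp1) were higher in both sets, against 32.0%, and 1 (Esrp1) was lower in both, against 28.0%. Cldn4 and Cldn6 were higher by over 0.2 in both sets, a margin set after the values were seen, which 6.47% of all genes met. Groups did not overlap for 4 higher genes (Cldn6, Cldn9, Epcam and Tjp1) and 1 lower gene (Esrp1), against 19.1% and 15.6% of all genes. The median log2 difference of the 10 genes was 0.20, with 0.27 in set 1 and 0.07 in set 2, beside a median of 0.01 over all genes. None of the 10 passed an adjusted p of 0.05, and neither did any gene in the whole table (0%). By limma an unadjusted p under 0.05 was reached by 981 genes, of which the higher make 2.74% of the table and the lower 2.18%, among them Cldn6 alone of the 10. In the blocked limma model 0 genes passed as well, and 2636 reached an unadjusted p under 0.05 (7.21% of the table above and 6.01% below control), among them Cldn4 and Cldn6, both higher. Without control replicate 1 and with no block, the median of the 10 genes was 0.06.

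**Figure D2:**
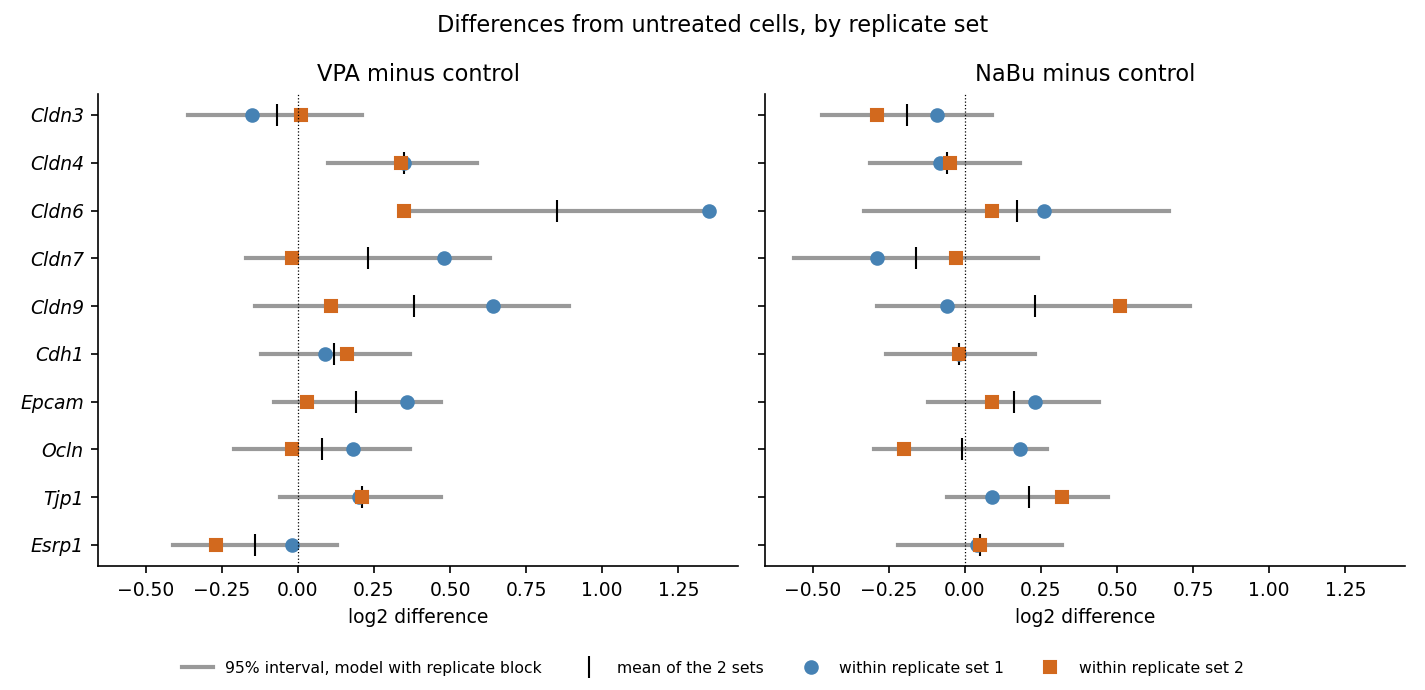
Log2 difference from untreated cells (horizontal axis) of the 10 genes with VPA (left) and NaBu (right), with circles and squares for the differences within replicate sets 1 and 2, black ticks for their mean and grey bars for the 95% interval of the limma model with the replicate block. With VPA the interval lay above 0 for Cldn4 and Cldn6, and with NaBu the interval of every gene included 0.

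The same question was asked of NaBu, whose mean log2 differences ran from -0.19 to 0.23 over the 10 genes. Cldn6 read 8.26 and 8.85 with NaBu, higher than the untreated array of its set by 0.26 and 0.09, and its log2 difference of 0.17 had a 95% interval of -0.33 to 0.67 with the block. Cldn4 read 9.06 and 10.13, or -0.08 and -0.05 against the untreated array of its set. Cldn3 read 6.30 and 6.65, Cldn7 6.03 and 7.28, and both stood below the untreated array in each set, by mean log2 differences of -0.19 and -0.16. Cldn9 was split between the sets, with 5.21 in set 1 and 6.11 in set 2, the highest value of this gene on any array.

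Among the other genes Tjp1 read 9.42 and 9.64 with NaBu, above both untreated arrays, and its mean log2 difference of 0.21 equalled that with VPA. Epcam, at 9.06 and 9.12, was also above both untreated arrays, with a difference of 0.16. Cdh1 read 9.70 and 9.92 and stood at -0.02 in both sets (95% interval -0.26 to 0.23 with the block). Ocln read 6.20 and 5.36, a difference of 0.18 in set 1 and -0.20 in set 2, and Esrp1 read 7.48 and 7.56, a difference of 0.04 and 0.05.

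With NaBu 5 of the 10 genes lay above 0, against 54.3% of all genes, 4 were higher in both sets (29.1% of all genes) and 4 lower in both (23.1%), but none was higher by over 0.2 in both (2.78%). Epcam and Tjp1 were the 2 whose groups did not overlap, both higher, against 12.7% of all genes, and none was lower without overlap, against 11.2%. The median log2 difference was 0.02 beside 0.01 over all genes. By limma none of the 10 genes and no gene of the table (0%) passed, with 311 genes at an unadjusted p under 0.05 (0.662% higher and 0.898% lower) and 916 with the block (2.40% and 2.20%), none of them among the 10. In fits without the block, leaving out NaBu replicate 1 gave a median of 0.25 over the 10 genes and leaving out control replicate 2 gave 0.23, whereas leaving out NaBu replicate 2 gave -0.13 and leaving out control replicate 1 gave -0.06. Feeder markers stood higher with NaBu at the same time, with 17 of 19 above 0 (54.3% of all genes), 14 of them higher in both sets (29.1%). Their mean difference was 0.11 within set 1 and 0.25 within set 2, and Col1a1, the fibroblast collagen, stood at 0.41, with 0.16 in set 1 and 0.67 in set 2. Its 95% interval was 0.09 to 0.74 with the block and -0.94 to 1.76 without it, and its limma adjusted p was 0.994 with the block. Their part in the values above was not tested.

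The 2 treated groups share the untreated arrays and differ in dose, so they were set side by side and also compared directly. The direct difference, VPA minus NaBu, was 0.41 for Cldn4 (0.43 in set 1 and 0.39 in set 2, 95% interval 0.17 to 0.65 with the block). For Cldn6 it was 0.68 (1.09 and 0.26, 95% interval 0.18 to 1.18 with the block). Cldn7 stood at 0.39, with 0.78 in set 1 and 0.01 in set 2, and Tjp1 at -0.00, with a 95% interval of -0.26 to 0.26 with the block. In limma none of the 10 genes and no gene of the table passed (0%). At an unadjusted p under 0.05 there were 724 genes, 1.95% of the table higher and 1.69% lower and none of the 10, and 2150 with the block, 5.51% higher and 5.27% lower, with Cldn4 and Cldn6 among the higher. Of the 10 genes 8 were above 0, against 50.2% of all genes. Within both sets 5 were higher with VPA, against 27.5%, 2 of them (Cldn4 and Cldn6) by over 0.2, against 4.35%, and 1 (Esrp1) was lower, against 28.6%. Cldn6 was the one whose VPA arrays were both above both NaBu arrays, against 16.0% of all genes, and Esrp1 the one below, against 14.6%.

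For Cldn3, Cldn4, Cldn7, Ocln and Cdh1 the difference between the replicate sets was larger than that between either treatment and control. It was taken from the replicate term of the blocked limma model, a comparison added after the data were seen. The labels do not say what the arrays of a set share. The p-values of this term thus measure how steady the shift was across the conditions, not a spread between independent sets. Cldn4 was higher in set 2 by 1.04 in untreated cells, 1.04 with VPA and 1.07 with NaBu, a mean of 1.05 (95% interval 0.85 to 1.25, adjusted p 0.000547). Cldn7 was higher by 0.99, 0.48 and 1.25 in the same order (mean 0.91, adjusted p 0.00766 by limma), and Cldn3 by 0.54, 0.70 and 0.34 (mean 0.53, adjusted p 0.0155 by limma). Ocln ran the other way, with -0.47, -0.66 and -0.84 (mean -0.66, 95% interval -0.89 to -0.42, adjusted p 0.00756 by limma).

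Cdh1 was higher in set 2 in all 3 conditions, by 0.22, 0.29 and 0.22, but had a limma adjusted p of 0.119, against 0.0377 with a variance prior that follows the level. Cldn6 was higher in set 2 by 0.76 untreated and 0.59 with NaBu and stood at -0.24 with VPA, with an adjusted p of 0.23 in limma. Its mean was 0.37, and that of Cldn9 was 0.33 (adjusted p 0.296 in limma) with -0.21 with VPA. Leaving out an array moved both. For Cldn6 the set difference was 0.68 without either VPA array (limma adjusted p 0.00531), 0.18 without either control array (0.665) and 0.26 without either NaBu array (0.577). For Cldn9 it was 0.61 (limma adjusted p 0.0267), 0.34 (0.411) and 0.05 (0.898) in the same order. Tjp1, Epcam and Esrp1 had means of 0.08, 0.04 and -0.01. In all 3 conditions 4 of the 10 genes were higher in set 2 (23.2% of all genes) and 1 was lower (23.5%). Thus 3 of the 10 genes passed as higher in set 2, against 6.04% of all genes, and 1 as lower, against 5.56%. With any single array left out the differences of these 4 genes kept their sign. They ran from 0.44 to 0.62 for Cldn3, 1.04 to 1.06 for Cldn4, 0.74 to 1.12 for Cldn7 and -0.75 to -0.56 for Ocln. Over all genes 2313 passed, a count that fell when a control or NaBu array was left out.

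Markers of other cells differed between the sets at the same time. Of 19 feeder markers 16 were higher in set 2 in all 3 conditions and 1 was lower, against 23.2% and 23.5% of all genes. In limma 9 passed as higher, against 6.04% of all genes. The mean set differences of the 19 were 0.56 untreated, 0.79 with VPA and 0.70 with NaBu. Of the 12 stem cell markers none was higher and 8 were lower in all 3 conditions, against the same shares. None passed as higher in limma and 2 passed as lower, against 5.56% of all genes. The 12 had means of -0.29, -0.13 and -0.31 in the same order. The part of feeder RNA in the claudin and occludin differences was not tested.

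**Figure D3:**
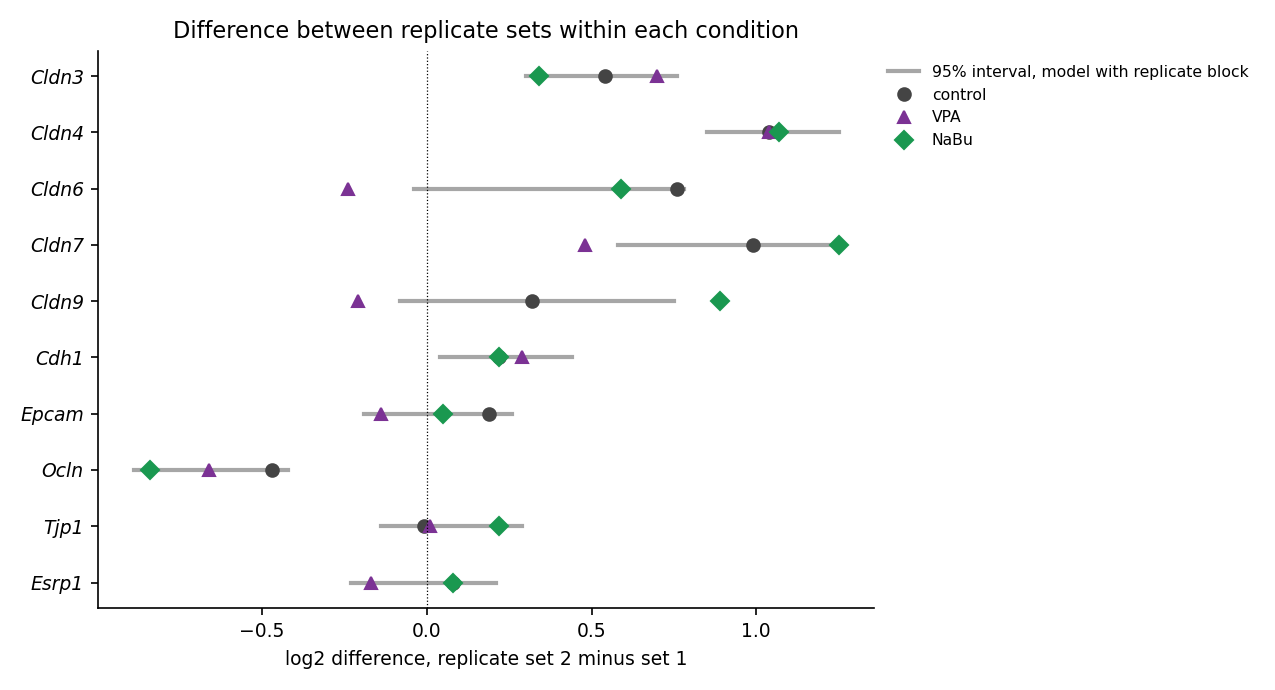
Log2 difference between replicate set 2 and replicate set 1 (horizontal axis) of the 10 genes in untreated (circles), VPA (triangles) and NaBu (diamonds) samples, with grey bars for the 95% interval of the replicate term. Cldn4 lay near 1.05 in every condition, Ocln was below 0 in every condition, and for Cldn6 and Cldn9 the VPA value was below 0 while the other two were above.

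Other genes of the same junctions were taken from lists of known components. In these lists no gene passed in limma for either compound, with or without the block. The other claudins had a median of -0.01 with VPA. Of 20 measured from 21 written, 9 lay above 0 (53.0% of all genes) and 5 were higher in both sets (32.0%). Only 2 of the 20 were above the array median on every array, and the list mean ran from 4.43 to 4.51 over the arrays. Most of these claudins may thus lie near background. Cldn10, an ion-pore claudin, had the largest statistic at 0.35 (0.51 and 0.19 within the sets), and Cldn17 and Cldn19 stood at -0.24 and -0.17. With NaBu the median was -0.02, and Cldn11, Cldn13 and Cldn8 stood at -0.31, -0.28 and -0.24. Cldnd1 and Tmem114 entered this list as RefSeq synonyms of claudin symbols.

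Of 21 measured tight junction partners and polarity genes, scaffolds and membrane proteins among them, 15 lay above 0 with VPA and 11 were higher in both sets, against 53.0% and 32.0% of all genes. Their median log2 difference was 0.15, with 0.23 in set 1 and 0.01 in set 2, and none passed. Cgnl1 (paracingulin), an actin-linked scaffold, read 6.58 and 6.89 untreated and 7.36 and 7.19 with VPA, and its log2 difference was 0.54 (0.78 and 0.30 within the sets). Cgn (cingulin), its close relative, read 6.93 and 7.09 untreated and 7.62 and 7.45 with VPA, a difference of 0.52 (0.69 and 0.36). The scaffold Magi3 stood at 0.45 (0.57 and 0.34). All 3 had both VPA arrays above both untreated arrays, and limma adjusted p values of 0.202, 0.202 and 0.215 with the block. Jam2, a junctional adhesion molecule named after its values were seen, went the other way, from 10.63 and 9.69 untreated to 9.36 and 9.27 with VPA, a difference of -0.85 (-1.27 and -0.43). With NaBu the median was 0.03, with Mpdz at 0.23, Pard6b at 0.20 and Lsr at -0.20, and Cgnl1, Cgn and Magi3 stood at 0.10, 0.01 and 0.04.

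Adherens junction genes stayed nearer 0. With VPA 10 of 12 lay above 0 (53.0% of all genes), but 3 were higher in both sets (32.0% of all genes) and the median was 0.04. Vcl, which encodes the actin linker vinculin, read 8.98 and 9.27 untreated and 9.43 and 9.72 with VPA, a difference of 0.45 in each set. The catenin Ctnnb1, the partner of E-cadherin and of Wnt signalling, stood at 0.10 with either compound. Nectin4 stood at 0.08 with VPA. With NaBu the median of the list was 0.05, Ctnna1 stood at 0.15 and Vezt at -0.16.

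Desmosome genes and simple keratins had a median of 0.24 with VPA, with 0.41 in set 1 and 0.10 in set 2. Of these 13 genes 8 were higher in both sets, against 32.0% of all genes. Dsg2 and Dsp, a desmosomal cadherin and the plaque protein desmoplakin, stood at 0.30 (0.27 and 0.34) and 0.23 (0.21 and 0.25), and Ppl (periplakin) at 0.35. Krt8, a keratin of simple epithelium, read 6.98 and 8.16 untreated and 8.28 and 8.37 with VPA, 1.30 higher in set 1 and 0.21 in set 2. Krt18, which pairs with Krt8 and was named after its values were seen, differed by 1.02 and 0.00. With NaBu the median was 0.04, Krt8 stood at 0.53, Dsp at -0.11 and Pkp4 at -0.15.

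Of 18 epithelial regulators and proteases 8 lay above 0 with VPA, against 53.0% of all genes, with a median of -0.01. Tfap2c, a transcription factor of trophoblast and surface ectoderm, stood at 0.95 (1.66 and 0.25), the surface antigen Cd24a at 0.56 (0.63 and 0.49) and the protease inhibitor Spint1 at -0.31. With NaBu the median was -0.06, with Cd24a at 0.21, Prss8 at -0.22 and Ovol2 at -0.23. Genes of the mesenchymal transition, 12 in all, had a median of -0.02 with VPA and 0.02 with NaBu. With VPA Snai2, a repressor of Cdh1, stood at 0.29 (0.19 and 0.38 within the sets). S100a4 stood at -0.47 (-1.11 and 0.16) and Zeb1 at -0.12 (-0.40 and 0.16), each lower in set 1 and higher in set 2. With NaBu Cdh2 stood at -0.16, Snai2 at 0.12 and S100a4 at -0.11. With VPA their mean was -0.21 in set 1 and 0.15 in set 2.

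**Figure D4:**
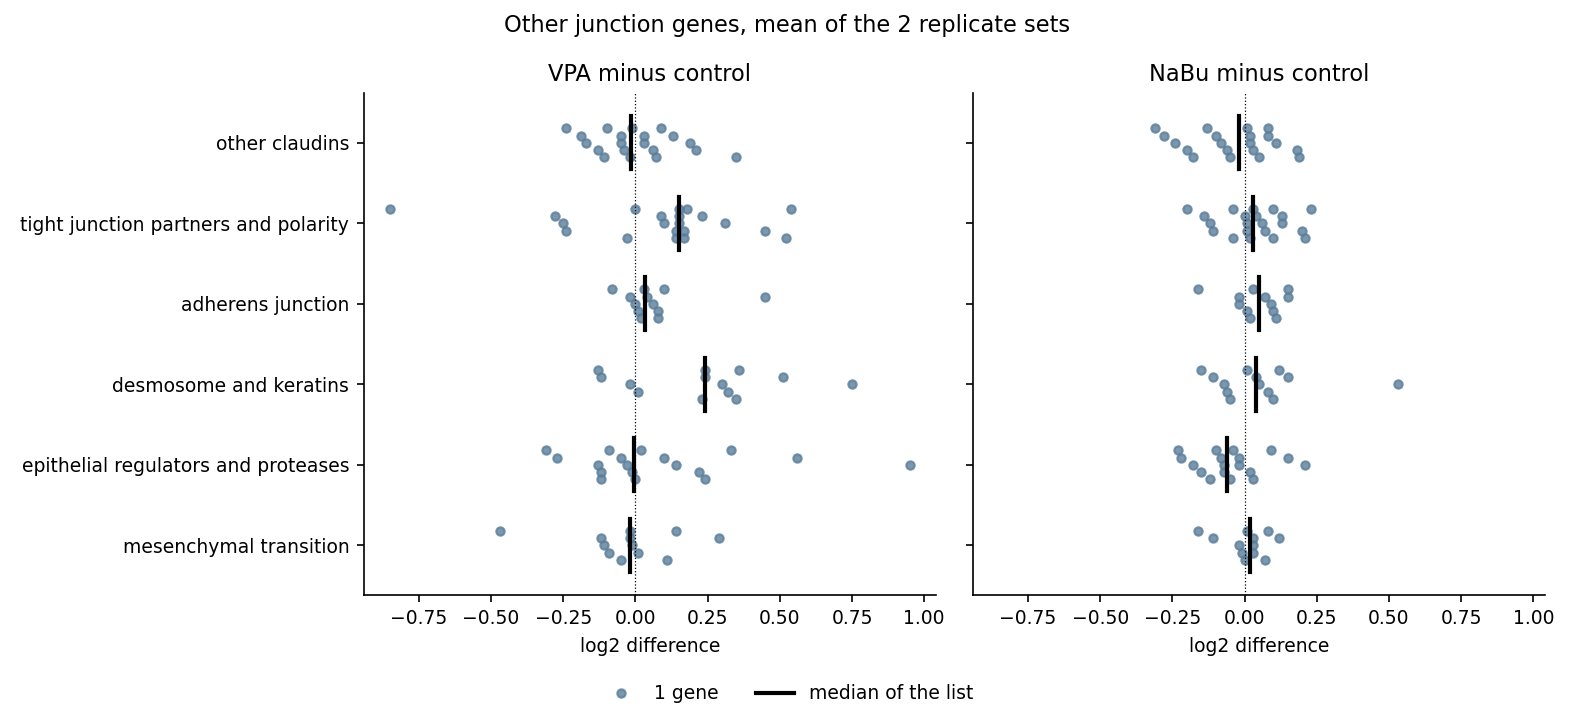
Log2 difference from untreated cells (horizontal axis) of each gene in 6 lists of other junction and transition genes, with VPA (left) and NaBu (right); dots are genes, at the mean of the 2 replicate sets, and black bars are list medians. The medians with VPA were 0.24 for desmosome genes and keratins and 0.15 for tight junction partners, and the single dot at the far left of the VPA panel is Jam2.

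Markers of other epithelia were read beside these values. The 10 trophectoderm markers had a mean difference with VPA of 0.43 in set 1 and 0.02 in set 2, with medians of 0.17 and -0.03. With NaBu the means were 0.06 and 0.08, and 4 of the markers were above the array median on every array. Tfap2c, Krt8 and Krt18, which had the largest set 1 differences with VPA, have their values above. Krt7, Krt8 and Krt18 are also in the desmosome and keratin list and Tfap2c in that of the epithelial regulators. The means of these markers are thus in part the same readings as those lists. Cdx2, Elf5, Eomes, Hand1, Krt7 and, with VPA, Gata3 were named after their values were seen. Cdx2 read 4.07 and 4.10 untreated and 4.22 and 4.23 with VPA, and Elf5 3.46 and 3.46 against 3.69 and 3.37. Eomes read 6.12 and 5.60 untreated and 6.18 and 5.49 with VPA, and Hand1 5.51 and 5.57 against 5.70 and 5.35. Elf5, Eomes and Hand1 were thus higher with VPA in set 1 and lower in set 2, and Cdx2 was higher in both. Tead4 stood at -0.23 with VPA and -0.14 with NaBu, and Gata3 at 0.21 with NaBu. Primitive and visceral endoderm markers had means of -0.08 and -0.01 with VPA and -0.06 and 0.00 with NaBu. Gata6 stood at -0.34, Hnf4a at -0.18 and Gata4 at 0.15 with VPA, and Apoa1 at -0.19, Gata4 at -0.17 and Ttr at -0.15 with NaBu. With VPA 14 of 19 feeder markers were above 0 (53.0% of all genes) and 5 below. Within both sets 4 were higher and 1 lower (32.0% and 28.0% of all genes). The mean of all 19 was -0.03 in set 1 and 0.20 in set 2. Those with the largest statistic were Fap at 0.32, Col5a1 at 0.22 and Thy1 at 0.21 (0.49 and -0.07 within the sets). Col1a1 stood at 0.18. Fap read 2.67 and 2.77 untreated and may lie near background. With NaBu Tagln, Acta2 and Fap stood at 0.30, 0.28 and 0.25. Of the 12 stem cell markers 11 were lower with VPA in both sets, against 28.0% of all genes. Among them Fgf4 stood at -0.86, Pou5f1 at -0.64 and Utf1 at -0.59. With NaBu Pou5f1, Sox2 and Dppa4 stood at -0.14, -0.18 and 0.10. The part of other cell types in the Cldn6 values was not tested.

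The genes with the pattern most like that of Cldn6 were Mylip, a ubiquitin ligase (r = 0.996 over the 6 arrays), Rabgap1l, a Rab regulator (r = 0.996), and Tfap2c (r = 0.99). Tfap2c read 7.35 and 8.39 untreated, 9.01 and 8.64 with VPA and 7.59 and 8.33 with NaBu, with its highest array in VPA set 1 like Cldn6. Among 6724 genes with a range of at least 0.5 over the arrays, 85 had a correlation above 0.95 with Cldn6 and 96 with Cdh1. Those most like Cdh1 were the lipid flippase subunit Atp11b, the exchange factor Cyth1 and the syndecan Sdc3, all at r = 0.99. The arrays share their replicate sets and conditions, so these correlations describe likeness and carry no test.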

How the data were processed

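Per the labels, RNA from 6 samples was hybridised to 6 Affymetrix arrays. The deposited values are log2 expression per probeset, which the authors made, per the submitters' processing notes, with Affymetrix Expression Console 1.1 by RMA; its settings and the genome build are not stated in these sources. Of 35556 probesets 21789 carried 1 gene symbol, and the one with the highest mean stood for each of 19938 genes.

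Groups were compared over all 6 arrays with limma 3.58.1 in R 4.3.3 (lmFit, eBayes), 1 mean per group, with Benjamini-Hochberg adjustment over all genes at 0.05, checked on simulated data. Intervals are 95%. An exact permutation test of 2 against 2 arrays cannot go below p = 0.333 and was not used. Deviations from the group means were correlated between arrays of 1 replicate number (r = 0.558, 0.693 and 0.567 across genes), read from the values and not the labels, so a model with replicate number as a block stands beside the main one. The members and lists were chosen with earlier results of these data known. Genes outside the 10 were the 3 of each list with the largest statistic per compound, the 3 most correlated with Cldn6 and with Cdh1, and Pou5f1 and Col1a1; others are said to be named after their values were seen. Listed genes without a probeset of their own symbol alone were not analysed here. Alternatives were normalization, filters on dim genes, probeset means, a variance trend and each array left out.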

Additional observations from a re-analysis of the deposited data

How the results depend on the processing

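Precision is limited by 2 arrays per group. RMA values carry no detection call, so the dim genes Cldn9 and Ocln, and most of the other claudins, may lie near background. limma called 0 genes for VPA, NaBu and VPA minus NaBu under all alternatives, with the replicate block included. The block left the member medians at 0.20, 0.02 and 0.13. The NaBu median was 0.00 under quantile normalization and -0.01 when genes below the median level were left out, and the VPA minus NaBu median was 0.09 after median centring. With no array left out, the differences between treatments of the 10 genes kept their sign except for VPA minus NaBu of Tjp1, at -0.00 and at 0.05 under quantile normalization, and of Epcam, at 0.03 and at -0.00 after median centring.

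Leaving out 1 array with no block brings part of the set difference into a value. The member medians then ran from 0.06 to 0.27 for VPA, from -0.13 to 0.25 for NaBu and from -0.08 to 0.27 for VPA minus NaBu. For VPA the ranges were -0.42 to 0.28 for Cldn3, -0.18 to 0.87 for Cldn4, -0.27 to 0.73 for Cldn7, -0.02 to 0.27 for Cdh1 and -0.25 to 0.41 for Ocln. The VPA ranges of Cldn6, Cldn9 and Epcam were 0.47 to 1.23, 0.22 to 0.53 and 0.10 to 0.29. For NaBu they were -0.46 to 0.08 for Cldn3, -0.60 to 0.47 for Cldn4, -0.21 to 0.55 for Cldn6, -0.79 to 0.46 for Cldn7, -0.22 to 0.67 for Cldn9, -0.13 to 0.09 for Cdh1 and -0.43 to 0.41 for Ocln. For VPA minus NaBu they were -0.23 to 0.47 for Cldn3, -0.13 to 0.94 for Cldn4, -0.23 to 1.02 for Cldn7, 0.38 to 0.97 for Cldn6, -0.30 to 0.60 for Cldn9, -0.00 to 0.28 for Cdh1, -0.11 to 0.11 for Tjp1, -0.04 to 0.10 for Epcam and -0.33 to 0.51 for Ocln. Between the sets, a comparison added after the data were seen, leaving out 1 array gave 716 to 2434 genes against 2313, -0.04 to 0.12 for Epcam and -0.05 to 0.08 for Esrp1. In the fits with no block, a lone array in a group is assumed to vary like the other groups. For the set difference, fitted with the block, a lone array adds nothing. Leaving out either array of a condition therefore gave the same value.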

Other observations

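Several other junction genes differed between the replicate sets by limma with the replicate term, a comparison added after the data were seen. Here too the p-values measure only how steady the shift was across the conditions. Krt19, a keratin of simple epithelium, was higher in set 2 by 1.69 (adjusted p 0.00273), Krt7 by 0.75 (adjusted p 0.00257) and the fibroblast cadherin Cdh11 by 1.10 (adjusted p 0.000516), all in limma. Grhl2, a transcription factor that activates Cdh1 and claudin genes, was lower in set 2, at -1.14 (adjusted p 0.00349 in limma), with -0.88 untreated, -1.62 with VPA and -0.93 with NaBu. Of the 13 desmosome genes and keratins 5 passed as higher and 1 as lower, against 6.04% and 5.56% of all genes. Of the 12 transition genes 3 passed as higher and 0 as lower, but of 18 epithelial regulators and proteases 0 as higher and 3 as lower. The 21 tight junction partners had 2 higher and 1 lower, the 12 adherens junction genes 1 and 0, and the 20 other claudins 0 and 0. These genes were named after their values were seen, and feeder markers had mean set differences between 0.56 and 0.79 at the same time.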
